A study of Mus musculus with 20 samples.

Results

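The genes described here encode the enzymes, carriers and regulators of fatty acid oxidation in mitochondria and peroxisomes, measured as RNA in visceral fat of female C57BL/6J mice. The members were chosen by name: 31 genes were listed, 26 of the mitochondrial pathway, 4 of the peroxisomal pathway and the nuclear receptor Ppara, out of 10603 genes measured above the expression filter. Each gene was read from the probe set (a group of short array probes) that carries its symbol alone and has the highest mean log2 intensity over the 20 arrays. Of the 31 genes, 29 had such a probe set and 28 of these passed the filter, which asked for an intensity above 100 on at least 5 of 20 arrays. The 28 are 24 mitochondrial genes (Pdk4 and the acyl-CoA synthetases counted with them), 3 peroxisomal genes and Ppara. Acox3, an acyl-CoA oxidase, was above 100 on 0 of 20 arrays and was not tested. Cpt1b, the muscle form of carnitine palmitoyltransferase 1, was left out because its probe set is shared with other genes, and Acsl1 was not analysed here.

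Mice came from 4 groups of 5 with 1 array a mouse. From 5 weeks of age, HF mice ate a diet with 58% fat and control mice one with 10% fat (per the labels), for 12 weeks before mating with males kept on chow. Each diet had mice that were non pregnant and mice that were pregnant, killed near term at embryonic day E18.5. The array labels say visceral fat and do not give the depot, which the paper's caption to the array analysis names as mesenteric. No group carried a transgene or a deletion. The labels give E18.5 for the non pregnant mice too, so status was taken from the pregnancy label. The HF diet also held sucrose where the control diet held corn starch, so that fat and carbohydrate cannot be told apart.

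Mitochondrial beta-oxidation shortens fatty acids in repeated rounds. A fatty acid is joined to coenzyme A, passes into the mitochondrion as its carnitine ester, and is then dehydrogenated, hydrated, dehydrogenated again and cleaved, each round releasing acetyl-CoA and passing electrons to the respiratory chain. Peroxisomes run a parallel route for very long and branched chains. White fat mainly stores fatty acids, but its adipocytes carry both routes, and Ppara and its relatives control many of the genes.

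Promoter sequences are shown for the pair of genes with the smallest p values among the mitochondrial members on the HF diet that share 1 promoter region. The window of Cpt1a, a carnitine palmitoyltransferase gene whose diet difference had the other sign, is also shown. None of these differences was called. RefSeq windows (build GRCm38.p6, 250 bases before to 50 bases after a start site) were found for 26 of the 31 members, with none for Acaa2, Cpt1b, Crat, Decr1 and Hsd17b4. Hadha and Hadhb, which encode the alpha and beta subunits of the mitochondrial trifunctional protein, lie head to head on chromosome 5. Their start sites are 273 bases apart and 228 bases of their windows coincide. The Hadhb window is chr5:30155003-30155302 on the plus strand and holds 4 copies of the GC box GGGCGG, counting both strands, shown in capitals.
Hadhb: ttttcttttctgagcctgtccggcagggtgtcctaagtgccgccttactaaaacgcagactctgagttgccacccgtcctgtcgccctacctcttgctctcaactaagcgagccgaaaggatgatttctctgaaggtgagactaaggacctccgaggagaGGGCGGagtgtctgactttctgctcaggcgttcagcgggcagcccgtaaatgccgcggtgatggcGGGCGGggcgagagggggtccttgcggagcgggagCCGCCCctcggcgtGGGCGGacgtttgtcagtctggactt
The Cpt1a window is chr19:3323051-3323350 on the plus strand. The capitals mark 3 GC boxes and 1 copy of the nuclear receptor hexamer AGGTCA, read as TGACCT on the other strand.
Cpt1a: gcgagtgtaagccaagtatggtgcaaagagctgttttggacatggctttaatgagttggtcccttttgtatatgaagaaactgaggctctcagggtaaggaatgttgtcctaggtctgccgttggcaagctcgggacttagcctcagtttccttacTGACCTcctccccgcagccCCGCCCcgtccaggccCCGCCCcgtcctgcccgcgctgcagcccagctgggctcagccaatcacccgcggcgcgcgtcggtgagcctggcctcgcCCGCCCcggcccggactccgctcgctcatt

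Over all 26 members with a window, GGGCGG occurred in 20 (76.9%), against 35.7% of the 32851 RefSeq windows of the same length, counting both strands. The hexamer AGGTCA occurred in 4 members (Acadm, Acadvl, Cpt1a and Echs1; 15.4%), against 16.3% of all windows. Its direct repeat with 1 base between the copies, the element that Ppara binds with its partner receptor, was in 0 of the 26 windows and in 0.0396% of all windows. TATAAA was in 0 of 26, against 13.6% of all windows. All windows include those of non-coding genes. A match of letters describes the window, and a window without a match says nothing of binding elsewhere.

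Array medians lay between 60.69 and 64.73, and the arrays of a group correlated with each other at 0.9371 to 0.996. All 8 measured adipocyte markers were above 100 on all 20 arrays, whereas Ucp1, Dio2, Zic1 and Prdm16 of the brown fat markers were above 100 on none, and so were 8 of 10 skeletal muscle markers. Mouse 4 of the control non pregnant group and mouse 2 of the control pregnant group stood apart with high pancreatic acinar genes, 5.92 and 6.19 log2 units above the mean of all mice over 8 markers. Control pregnant mouse 5 came next, at 2.14. B and T cell genes varied widely within every group, although visible lymph nodes had been cut from the fat. Below, a log2 intensity is a level, a difference is the mean of the first named group minus that of the second on the log2 scale ± SE from limma, and levels are compared between mice but not between genes.

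No member passed an adjusted p of 0.05 (limma, Benjamini-Hochberg over 19802 probe sets) in any of the 7 comparisons. With diet averaged over pregnancy, 0 of 28 members were called against 1.24% of all probe sets. In this comparison 9 members were lower at an unadjusted p under 0.05, against 13.5% of all probe sets, and 0 were higher, against 16.1%. These were Cpt2, Acads, Echs1, Hadh, Hadha, Hadhb and Decr1 of the mitochondrial route and Ehhadh and Acaa1a of the peroxisomal route. The list depends on the probe set read. By unadjusted p, other kept probe sets of Slc25a20 (0.0259), Acaa2 (0.0287 and 0.0344), Acot2 (0.033) and Crat (0.0392) were lower. Another of Cpt1a (0.0267) was higher, and another of Hadh (0.051) and of Hadhb (0.162) were not under 0.05. Differences were negative in 24 of 28 members, whereas 42.4% of all probe sets were negative. The median difference was -0.29 over the 24 mitochondrial and -0.31 over the 3 peroxisomal genes, beside 0.04 over all probe sets. Most of the members thus had the same sign, and the smallest adjusted p was 0.079, for Hadha. Members vary together between mice, as given below, so their signs are not independent. The same count, 24 of 28, was negative in control pregnant against control non pregnant mice, where 49.6% of all probe sets were. For the difference between diets in the response to pregnancy 24 of 28 were positive, whereas 52.3% of all probe sets were negative. In the diet average without control pregnant mouse 2, 7 members passed, which is 25% of the members where 21.8% of all probe sets passed. Of these, Hadha, Hadhb, Acads, Decr1, Acot2 and Ehhadh were lower and Acsl5 was higher on HF. Leaving out HF non pregnant mouse 4 or control non pregnant mouse 2 brought the count to 1, Hadha, or 3.57% of the members, beside 5.83% and 2.49% of all probe sets. The members' shares in these 3 fits were near those of all probe sets.

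In non pregnant mice, 0 of 28 members were called between the diets, as was 0.0% of all probe sets. At an unadjusted p under 0.05, 8 members were lower on HF against 7.22% of all probe sets, and 1, Acsl5, was higher against 10.5%. Differences were negative in 25 of 28, with medians of -0.42 (mitochondrial) and -0.27 (peroxisomal) beside 0.01 over all probe sets. In pregnant mice, 0 of 28 were called against 0.192%, 1 member (Hadha) was lower at an unadjusted p under 0.05 against 7.93%, and 0 were higher against 4.9%. There 22 of 28 differences were negative, with medians of -0.17 and -0.34 beside 0.05. The values from 5 mice did not lie wholly on 1 side of the other diet's values for any member (0 of 28 in both comparisons), against 2.19% of all probe sets in non pregnant and 3.51% in pregnant mice. The 2 medians of the mitochondrial genes were not shown to differ from each other: 0 of 28 members were called for the difference between diets in the response to pregnancy (0.0% of all probe sets), and 0 had an unadjusted p under 0.05 (3.08% of all). Single mice moved these medians both ways. In non pregnant mice, without HF mouse 5 the mitochondrial median was -0.26 and the peroxisomal -0.16, and 0 members were lower at an unadjusted p under 0.05 (2.21% of all probe sets). Without HF mouse 2 the peroxisomal median there was -0.42. In pregnant mice the mitochondrial median was -0.05, -0.09 and -0.10 without control mouse 1, control mouse 3 and HF mouse 4, and -0.28 without control mouse 2 or HF mouse 5.

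**Figure D1:**
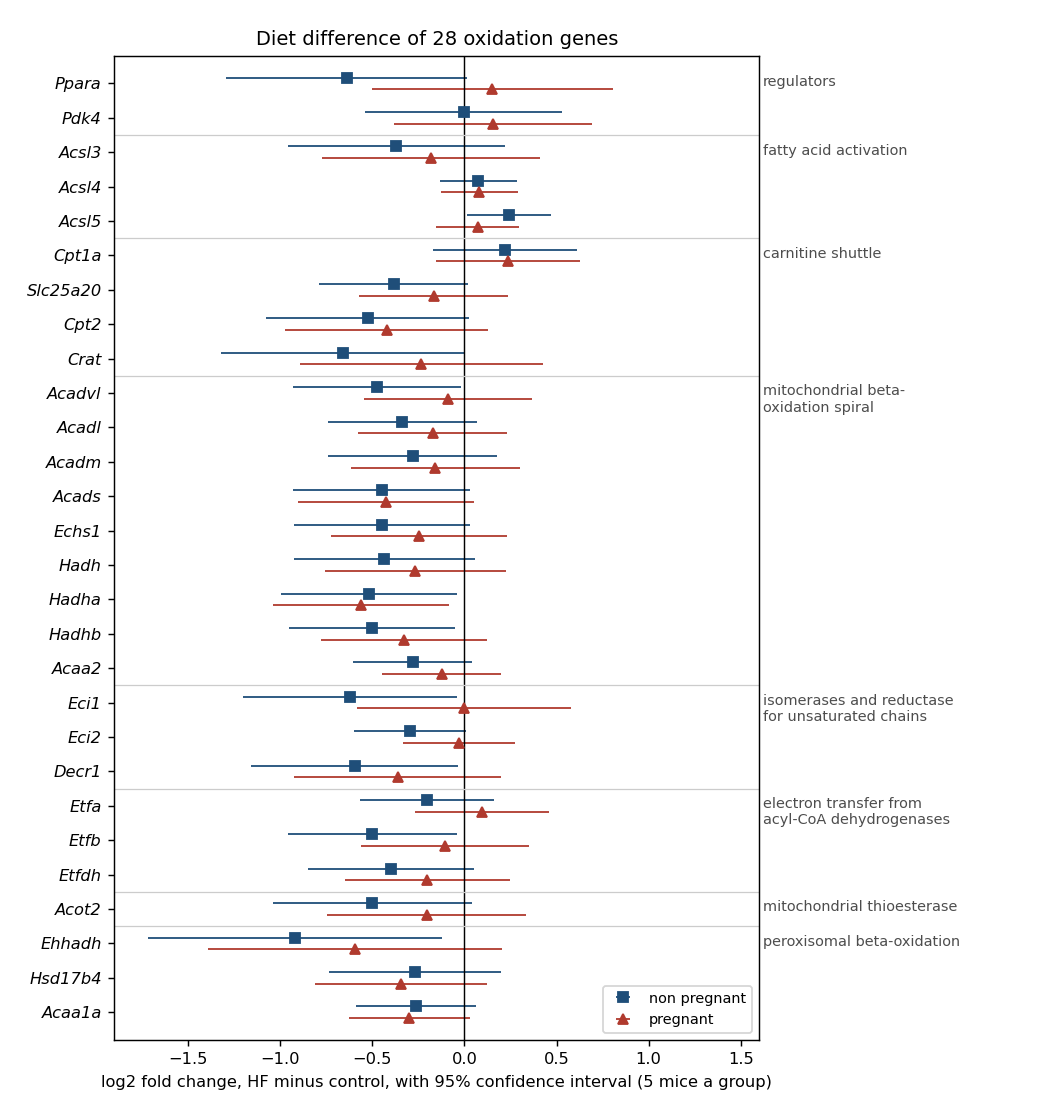
Difference between the diets (HF minus control, log2 scale, x axis) of the 28 measured members (y axis, grouped by role) in non pregnant mice (squares) and pregnant mice (triangles), with 95% confidence intervals from limma (5 mice a group). Points lie left of 0 for 25 members in non pregnant and 22 in pregnant mice, and most of the intervals cross 0.

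Of the regulators Ppara and Pdk4, neither was called between the diets, and they were not tested against each other. Ppara, a fatty acid receptor that switches on oxidation genes, had log2 intensities of 8.49, 7.6, 7.64, 8.15 and 7.50 in the control non pregnant mice and 6.77, 7.32, 7.26, 8.24 and 6.59 in the HF non pregnant mice. In the pregnant mice the values were 8.05, 6.56, 7.56, 7.21 and 7.05 on control and 7.29, 7.27, 7.39, 7.07 and 8.17 on HF diet. Thus 4 of 5 HF non pregnant mice were below the lowest control and the fifth was inside the control range, while the pregnant groups overlapped. The difference was -0.64 ± 0.31 in non pregnant (unadjusted p = 0.0547, adjusted p = 0.281) and 0.15 ± 0.31 in pregnant mice (adjusted p = 0.812). The difference between these 2 values, 0.79 ± 0.44, was the highest of any member and did not pass (adjusted p = 0.933). Ppara lies near the filter: its level was above 100 on 18 of 20 arrays, and its other 2 probe sets had the same signs. Pdk4, the kinase that turns off pyruvate dehydrogenase and spares glucose, had group means of 10.39 on control and 10.39 on HF diet in non pregnant mice and of 10.30 and 10.45 in pregnant mice, with differences between diets of -0.00 ± 0.26 and 0.16 ± 0.26.

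The acyl-CoA synthetases, which join fatty acids to coenzyme A, did not share a direction. Acsl5 had log2 intensities of 9.94, 9.94, 10.20, 9.98 and 10.22 in control non pregnant and 10.45, 10.21, 10.20, 10.08 and 10.55 in HF non pregnant mice. It was 10.04, 10.52, 10.04, 10.21 and 10.06 in control pregnant and 10.24, 10.33, 10.36, 10.18 and 10.13 in HF pregnant mice. Only HF mice 1 and 5 exceeded all non pregnant controls. The difference was 0.24 ± 0.11 in non pregnant (unadjusted p = 0.037, adjusted p = 0.281) and 0.07 ± 0.11 in pregnant mice. Acsl4, which prefers arachidonic acid, differed by 0.08 ± 0.10 in both. Acsl3, a synthetase of the endoplasmic reticulum and lipid droplets, differed by -0.37 ± 0.28 and -0.18 ± 0.28. With both diets averaged, Acsl3 was -0.42 ± 0.20 in pregnant against non pregnant mice (unadjusted p = 0.0511), the lowest value of any member in that comparison.

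The genes of the carnitine shuttle had diet differences of both signs, and none was called. Cpt1a, the regulated entry enzyme that makes the carnitine ester, had values of 9.56, 9.54, 9.08, 9.19 and 9.18 in control non pregnant mice and 9.68, 9.84, 9.45, 9.25 and 9.42 in HF non pregnant mice. In pregnant mice the values were 8.63, 9.41, 9.23, 9.76 and 9.59 on control and 9.51, 9.48, 9.68, 9.94 and 9.18 on HF diet. The groups overlapped throughout. The differences on HF were 0.22 ± 0.19 in non pregnant and 0.24 ± 0.19 in pregnant mice, and the average of 0.23 ± 0.13 was the highest of the 28 (adjusted p = 0.231). All 3 of its probe sets had this sign, and another of them had an unadjusted p of 0.0267 in the average. The other measured genes of the shuttle had the other sign. Slc25a20, the carnitine-acylcarnitine translocase, averaged -0.28 ± 0.14 and Crat, which moves short chains between carnitine and coenzyme A, -0.45 ± 0.22. Cpt2, which returns the chain to coenzyme A on the matrix side, had values of 10.52, 10.34, 10.91, 10.72 and 10.67 in control non pregnant and 10.28, 10.35, 9.99, 10.72 and 9.19 in HF non pregnant mice. In pregnant mice it was 11.25, 10.18, 11.10, 10.12 and 10.42 on control and 9.94, 10.30, 10.19, 9.84 and 10.70 on HF diet. HF mice were at or below the control means except mouse 4 (non pregnant) and mouse 5 (pregnant), and the averaged difference was -0.47 ± 0.19 (unadjusted p = 0.0199, adjusted p = 0.122).

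All 9 measured enzymes of the mitochondrial spiral had negative differences in both states. Hadha, the subunit of the trifunctional protein that hydrates and dehydrogenates long chains, had log2 intensities of 9.69, 9.39, 10.39, 10.02 and 10.24 in control non pregnant and 9.37, 9.56, 9.35, 9.86 and 9.0 in HF non pregnant mice. In pregnant mice it was 10.66, 9.49, 10.20, 9.53 and 9.62 on control and 9.21, 9.29, 9.40, 9.12 and 9.67 on HF diet. In the pregnant groups 4 of 5 HF mice lay below the lowest control, and mouse 5 lay above 3 of the controls. The differences were -0.52 ± 0.23 in non pregnant and -0.56 ± 0.23 in pregnant mice, and their average was -0.54 ± 0.16 (unadjusted p = 0.00352), 1.45-fold lower. Hadhb, the thiolase subunit whose gene lies head to head with Hadha, was 11.96, 11.81, 12.40, 12.34 and 12.39 in control non pregnant and 11.68, 11.85, 11.67, 12.12 and 11.05 in HF non pregnant mice. In pregnant mice it was 12.57, 11.75, 12.41, 11.50 and 11.95 on control and 11.56, 11.80, 11.74, 11.36 and 12.09 on HF diet. The diets overlapped in both states, with an average difference of -0.42 ± 0.15 (unadjusted p = 0.0132, adjusted p = 0.108). A second probe set of Hadhb had the same sign (-0.26) and the dimmest had the other (0.11). Acads, the short-chain dehydrogenase, averaged -0.44 ± 0.16 (adjusted p = 0.111), nearly the same in non pregnant (-0.45) and pregnant (-0.43) mice. The other dehydrogenases, Acadvl for very long, Acadl for long and Acadm for medium chains, averaged -0.28, -0.25 and -0.22, and none had an unadjusted p under 0.05 in this average. The hydratase Echs1 averaged -0.35 ± 0.16, the 3-hydroxyacyl-CoA dehydrogenase Hadh -0.35 ± 0.17 and the thiolase Acaa2 -0.20 ± 0.11.

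**Figure D2:**
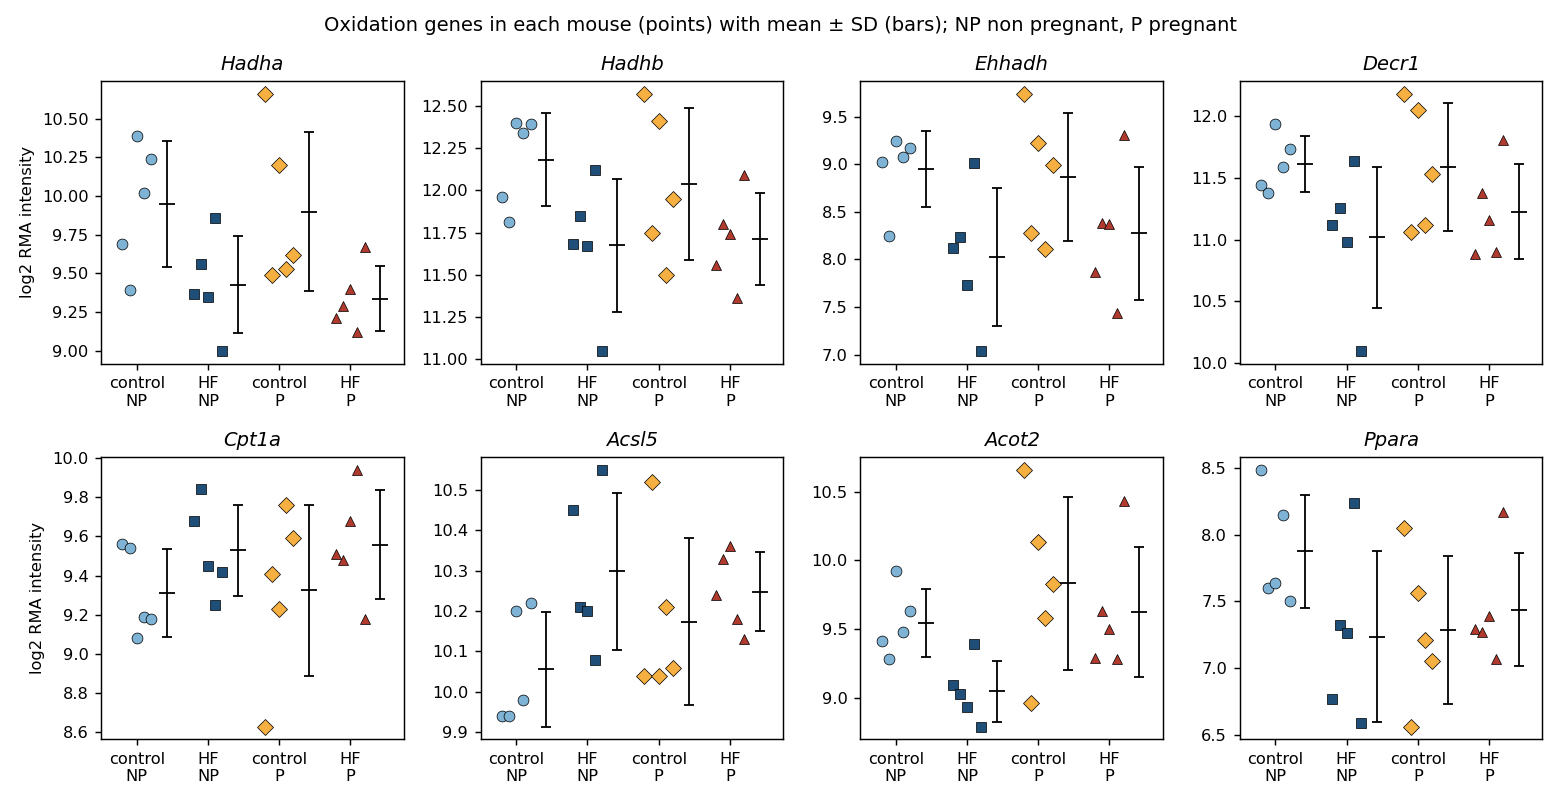
Log2 intensity (y axis) of 8 members in each mouse, by group (x axis: control and HF, non pregnant NP and pregnant P), with the group mean and SD beside the points. In Hadha 4 of 5 HF pregnant mice lie below the lowest control pregnant mouse, whereas in Cpt1a and Acsl5 the HF means lie above those of the controls with overlapping points.

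The enzymes that handle double bonds followed the spiral in non pregnant mice. Decr1, the dienoyl-CoA reductase for polyunsaturated chains, had values of 11.44, 11.38, 11.94, 11.59 and 11.73 in control non pregnant and 11.12, 11.26, 10.98, 11.64 and 10.10 in HF non pregnant mice, so that 4 of 5 HF mice were below the lowest control. In pregnant mice it was 12.18, 11.06, 12.05, 11.12 and 11.53 on control and 10.88, 11.38, 11.16, 10.90 and 11.81 on HF diet, with overlap. The average difference was -0.48 ± 0.19 (unadjusted p = 0.0208, adjusted p = 0.124). Eci1, the main mitochondrial isomerase, was 11.37, 11.02, 11.52, 11.14 and 11.22 in control non pregnant and 10.60, 10.73, 10.64, 11.35 and 9.84 in HF non pregnant mice. In pregnant mice the values were 11.71, 10.64, 11.47, 10.63 and 11.0 on control and 10.58, 11.09, 11.19, 10.67 and 11.91 on HF diet. The HF non pregnant mice were below all controls except mouse 4, and the pregnant groups were interleaved, with differences of -0.62 ± 0.28 and -0.00 ± 0.28. The difference between the 2 was 0.62 ± 0.39 (unadjusted p = 0.13), with a 95% confidence interval from -0.20 to 1.44. Eci2, a second isomerase, gave -0.30 ± 0.14 and -0.03 ± 0.14.

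The genes that pass electrons from the dehydrogenases to the respiratory chain had the same order. Etfb, the beta subunit of electron transfer flavoprotein, differed by -0.50 ± 0.22 in non pregnant (unadjusted p = 0.0338) and -0.10 ± 0.22 in pregnant mice. Control non pregnant mice spanned 11.65 to 11.84, and 4 of 5 HF non pregnant mice lay below them, at 11.20, 11.48, 11.34 and 10.54. The alpha subunit Etfa differed by -0.20 ± 0.17 and 0.09 ± 0.17, and Etfdh, which hands the electrons to ubiquinone, by -0.40 ± 0.21 and -0.20 ± 0.21.

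Acot2, a mitochondrial thioesterase that releases free fatty acids from coenzyme A, had the highest difference between pregnant and non pregnant mice of the 28 members with both diets averaged. Its log2 intensities were 9.41, 9.28, 9.92, 9.48 and 9.63 on control and 9.09, 9.03, 8.93, 9.39 and 8.79 on HF diet in the non pregnant mice. In the pregnant mice they were 10.66, 8.96, 10.13, 9.58 and 9.83 on control and 9.29, 9.63, 9.50, 9.28 and 10.43 on HF diet. On HF diet 3 pregnant mice exceeded all non pregnant ones. HF pregnant minus HF non pregnant was 0.58 ± 0.26 (unadjusted p = 0.0361, adjusted p = 1.0), 0.29 ± 0.26 was found on control diet, and the average over diets was 0.43 ± 0.18 (unadjusted p = 0.0278, adjusted p = 0.989). Its second probe set gave 0.58 on HF diet as well.

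The peroxisomal genes had negative diet differences in all 3 measured members and both states. Ehhadh, the bifunctional enzyme of straight chains, had log2 intensities of 9.02, 8.25, 9.24, 9.08 and 9.17 in control non pregnant and 8.12, 8.24, 7.73, 9.01 and 7.04 in HF non pregnant mice. In pregnant mice it was 9.74, 8.28, 9.22, 8.11 and 8.99 on control and 7.87, 8.38, 8.37, 7.44 and 9.31 on HF diet. In the non pregnant groups 4 of 5 HF mice were below the lowest control, 1 of them by 0.01, and in the pregnant groups 2 of 5 were. Its differences of -0.92 ± 0.38 in non pregnant (1.89-fold lower, unadjusted p = 0.026) and -0.59 ± 0.38 in pregnant mice were the most negative of any member in each state, and the average was -0.76 ± 0.27 (1.69-fold lower, unadjusted p = 0.0112, adjusted p = 0.104). Acaa1a, the peroxisomal thiolase, averaged -0.28 ± 0.11 (unadjusted p = 0.0198, adjusted p = 0.122), with -0.26 in non pregnant and -0.30 in pregnant mice. Hsd17b4, the bifunctional enzyme of branched and very long chains, averaged -0.31 ± 0.16 (unadjusted p = 0.0678). The probe sets of Acaa1a and Hsd17b4, like those of Cpt1a and Hadh, are of a kind that the manufacturer marks as able to bind other transcripts. Acox3 stayed between 5.93 and 6.48, below the filter, in all 20 mice.

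No member was called between pregnant and non pregnant mice. In control pregnant against control non pregnant mice 0 of 28 members were called (0.0% of all probe sets) and 0 had an unadjusted p under 0.05 (2.9% of all), with medians of -0.10 (mitochondrial) and -0.04 (peroxisomal). The most negative were Ppara (-0.59 ± 0.31), Acsl3 (-0.51 ± 0.28) and Acaa2 (-0.29 ± 0.15). In HF pregnant against HF non pregnant mice 0 of 28 were called (0.0252% of all) and 1, Acot2, had an unadjusted p under 0.05 (4.66% of all), with medians of 0.08 and -0.08. Eci1 followed Acot2, at 0.45 ± 0.28. Averaged over diet, 0 of 28 were called (0.0101% of all) and Acot2 alone had an unadjusted p under 0.05 (4.59% of all). In 0 of 28 members did the 5 pregnant mice lie wholly to 1 side of the 5 non pregnant mice, against 0.217% of all probe sets on control diet and 1.53% on HF diet. The 4 comparisons of groups share groups with each other, so their values are not independent.

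Members varied together between mice of a group. Each value was taken as a deviation from its group mean over the 20 mice. The median Pearson correlation was 0.811 over the 276 pairs of mitochondrial genes and 0.751 over the 378 pairs of all 28 members. Over all pairs of the 10603 genes the median was -4.8e-05, but positive and negative pairs cancel in it. It does not show how closely other sets of genes vary together, and whether the co-variation is particular to these members was not tested. The highest pair was Cpt2 with Decr1 (0.985). Hadha and Hadhb, with overlapping promoter windows, correlated at 0.925, which was rank 69 of the 378 pairs. Etfb (median r of 0.918 with the others) and Cpt2 (0.906) were closest to the rest. Acsl4, Acsl5 and Cpt1a stood apart, with median correlations of -0.16, -0.50 and -0.57. Acsl5 and Acsl3 were the most opposed pair (-0.848). These values share arrays and normalization, and are given as a description.

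**Figure D3:**
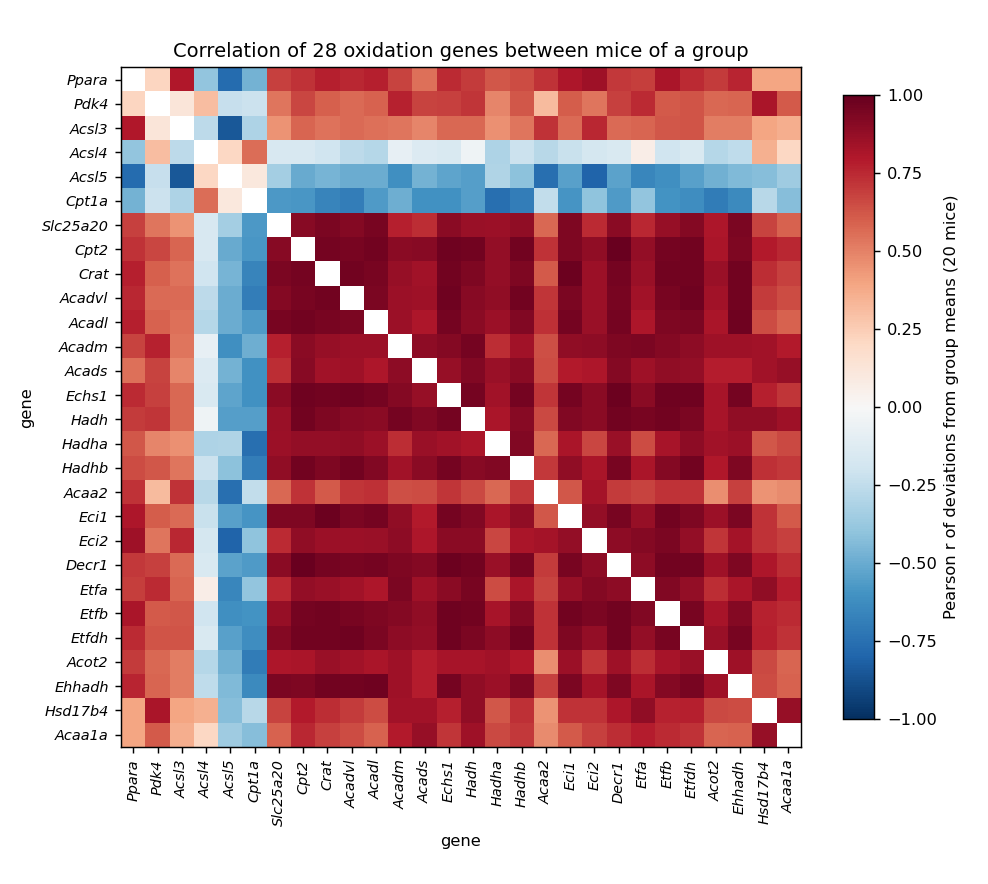
Pearson correlation (colour, from -1 blue to 1 red) between each pair of the 28 members, over the deviations of 20 mice from their group means; both axes list genes by role. Most of the field is red, with a median of 0.751, and the rows of Acsl4, Acsl5 and Cpt1a are mostly blue.

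Cell type markers moved with the members. The mean log2 deviation of the 24 mitochondrial genes from their means over all mice was 0.13, 0.01, 0.33, 0.20 and 0.20 on control and -0.13, 0.03, -0.20, 0.17 and -0.74 on HF diet in non pregnant mice. In pregnant mice it was 0.50, -0.27, 0.38, -0.25 and 0.03 on control and -0.27, -0.03, -0.08, -0.32 and 0.33 on HF diet. HF non pregnant mouse 5 was the lowest and control pregnant mouse 1 the highest. The 17 B and T cell markers were highest in the former (1.90) and lowest in the latter (-2.0), and the 8 adipocyte markers were lowest in the former (-0.81) and highest in the latter (0.63). B and T cell markers averaged -0.66 ± 1.04 (SD, n = 5) on control and 0.59 ± 1.01 on HF diet in non pregnant mice and -0.19 ± 1.47 and 0.25 ± 1.14 in pregnant mice, higher in mean on HF in both states, with ranges that overlapped. For adipocyte markers these means were 0.14 ± 0.11 and -0.05 ± 0.47 in non pregnant and 0.03 ± 0.51 and -0.11 ± 0.39 in pregnant mice. Within groups, 25 of 28 members correlated negatively with the B and T cell mean (median -0.652, from -0.86 for Etfa) and 26 of 28 positively with the adipocyte mean (median 0.749, up to 0.948 for Etfa). The exceptions were Acsl4, Acsl5 and Cpt1a for the former and Acsl5 and Cpt1a for the latter, and Acsl5 reached 0.807 with the B and T cell mean. Whether these correlations are particular to the members was not tested. With the B and T cell mean as a covariate, the median diet difference of the mitochondrial genes was -0.16 in non pregnant mice and -0.12 averaged over pregnancy, that of the peroxisomal genes was -0.09 and -0.17, and 1 member was lower at an unadjusted p under 0.05 in the average, against 8.16% of all probe sets. The averaged difference became smaller in size in 26 of 28 members, to -0.42 in Hadha and -0.48 in Ehhadh. In pregnant mice the medians with the covariate were -0.085 and -0.25, and the difference became smaller in 23 of 28 members, the others being Ppara, Pdk4, Eci1, Eci2 and Etfa. In bulk tissue, fewer cells of a type and less RNA per cell cannot be told apart.

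**Figure D4:**
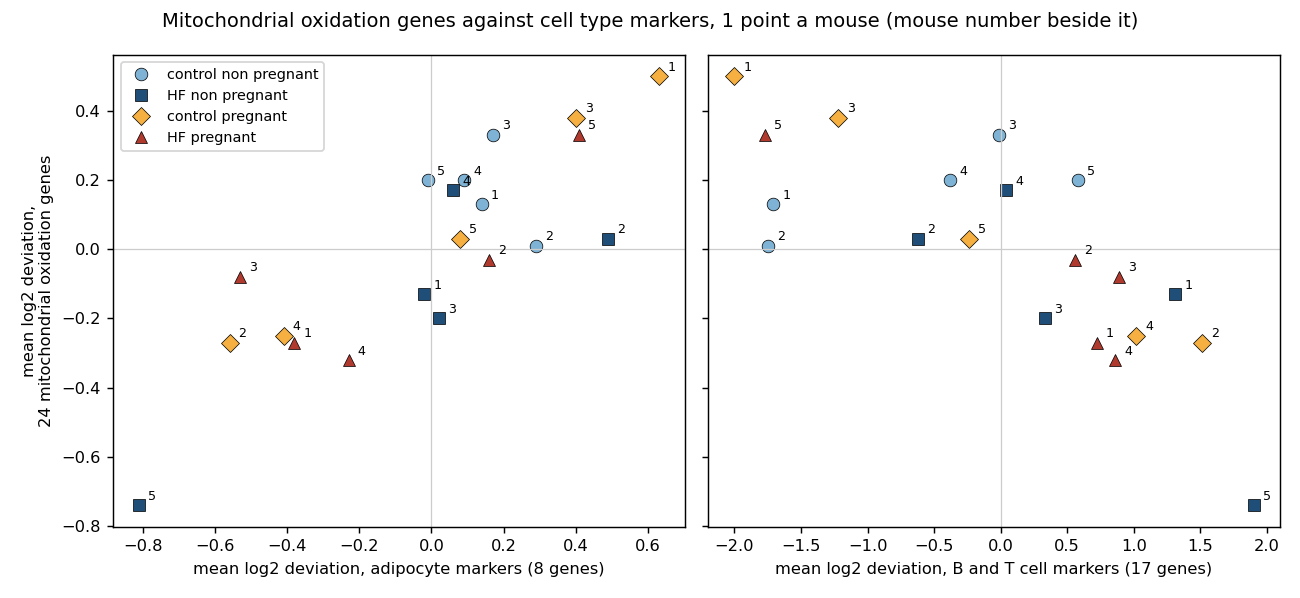
Mean log2 deviation of the 24 mitochondrial members (y axis) against that of 8 adipocyte markers (left, x axis) and 17 B and T cell markers (right, x axis), 1 point a mouse with its number, marked by group. Mitochondrial genes lie high where adipocyte markers are high and B and T cell markers are low, and HF non pregnant mouse 5 is the extreme at -0.74.

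Brown fat markers were also lower in mean on HF. Their mean over the 5 markers that passed the filter was 0.58 ± 0.30 on control and -0.24 ± 0.73 on HF diet in non pregnant mice, and 0.17 ± 0.51 and -0.51 ± 0.24 in pregnant mice (SD, n = 5). The diet average of this mean was -0.75, or -0.43 without Cidea (left out after its value was seen), the marker with the most negative value (-2.03), and that of Ebf2 was positive (0.17). Within groups, 25 of 28 members correlated positively with the mean of the 5 markers (median r of 0.766 over 20 mice) and 25 with that of the 4 markers other than Cidea (0.768), with Acsl4, Acsl5 and Cpt1a negative in both. HF pregnant mouse 5, the highest of its group in the mitochondrial genes, was at -0.30 in the brown markers. The other mice of that group were at -0.45, -0.75, -0.27 and -0.78, so that only mouse 3 was above it. The defining gene Ucp1 was under 100 in every mouse. The adipocyte mean gave similar values (26 of 28 positive, median 0.749), and the correlations of other genes with the brown markers are not given. The values are thus not shown to be particular to brown markers or to the members. The part of these markers in the oxidation genes was not tested.

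Of the other genes of the pathway, 51 were measured and 3 passed in the diet average, against 1.24% of all probe sets. All 3 were lower on HF and in the list of genes that control the pathway. Acaca, acetyl-CoA carboxylase 1, whose product malonyl-CoA is used to build fatty acids and blocks carnitine palmitoyltransferase 1, averaged 12.29 ± 0.65 on control and 11.12 ± 0.85 on HF diet in non pregnant mice and 12.36 ± 0.62 and 10.45 ± 0.44 in pregnant mice (SD, n = 5), and fell by 1.54 ± 0.28 on HF (adjusted p = 0.0172). Cidea, a lipid droplet protein abundant in brown fat, fell by 2.03 ± 0.41 (adjusted p = 0.0249) and Pdk1, a sister kinase of Pdk4, by 1.09 ± 0.22 (adjusted p = 0.0248). In the other 6 comparisons 0 of the 51 were called, against 0.0% to 0.192% of all probe sets. Among 15 other peroxisomal genes, 15 differences were negative in the diet average and 8 of them had an unadjusted p under 0.05, with a median of -0.30. Among 17 other mitochondrial genes these counts were 14 and 7, with a median of -0.23. Of all probe sets, 42.4% were negative in this average and 13.5% were lower at an unadjusted p under 0.05, with a median of 0.04. The 3 genes of ketone body metabolism were positive in this average, with a median of 0.12, and none was called. All 3 were negative in non pregnant mice (-0.338 to -0.038) and positive in pregnant mice (0.189 to 1.045), with 0 of 3 at an unadjusted p under 0.05 in either state. The values of -0.338 and 1.045 are both of Bdh1, which varied widely. Its SD was 1.71 in control pregnant mice, with a range from 5.68 to 9.80. Pparg, the master regulator of adipocytes, had a diet average of -0.31 ± 0.26, and the coactivator Ppargc1a -0.31 ± 0.22, neither called.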

How the data were processed

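RNA was hybridised to Affymetrix Mouse Genome arrays, 1 per mouse. The authors normalised the scans by RMA with the affy package (R 2.8.0), and the deposited values are 1 linear intensity per probe set and array for 45101 probe sets. The paper and the labels differ on the extraction kit, and neither gives a batch or scan date. Probe sets were named through the platform annotation. Here the log2 was taken, 64 manufacturer's controls were left out and 19802 probe sets (43.97%) above 100 on at least 5 arrays were kept. A model of 4 group means and 7 contrasts was run in limma 3.58.1 (R 4.3.3), with Benjamini-Hochberg adjustment over all kept probe sets. The pipeline was tested on simulated data with changes larger than any difference of the members. That test does not show whether changes of the members' size would be found. The number of arrays limits the precision. Mice came from different litters, and p values measure the spread between single mice. The members, gene lists and alternatives were chosen with earlier results of these data known. Members called, and the 3 highest and 3 lowest of each comparison, could be named with values by rule, as could Pparg, Ppargc1a and called pathway genes; the values of other members were added after they were seen, to cover each step of the pathway. Replicate numbers did not pair mice, so no block was used. Alternatives were the filter, moderation, array weights, samples in the fit, scaling, probe sets of a gene, a floor, a replicate block, each array left out, 2 arrays with pancreatic genes left out, a marker covariate and an unadjusted call rule.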

Additional observations from a re-analysis of the deposited data

Results flagged for a closer look

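In 120 tests of a group of 5 mice (28 members and the means of the mitochondrial and of the peroxisomal genes, in 4 groups), 5 had a mouse far from the other 4 by Dixon's criterion, and chance alone flags about 1 in 20 groups. In HF non pregnant mouse 5, Acadm was 11.54 where the others lay between 12.27 and 12.55, and Acads was 8.79 where the others lay between 9.51 and 9.80. In control non pregnant mouse 3, Hadh was 13.58 against 13.31 to 13.34. In HF pregnant mouse 1, Acaa2 was 10.15 against 9.90 to 9.96. In control non pregnant mouse 2, Ehhadh was 8.25 against 9.02 to 9.24. All values are log2 intensities.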

How the results depend on the processing

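Counts of members called at an adjusted p under 0.05 were 0 in every comparison without the filter, when it used mean intensity, with a robust trended eBayes, on the compared groups alone, after centring or a repeated quantile normalization, with the probe sets of each gene averaged, with a floor of 100, with the B and T cell covariate and with the replicate block. Array weights gave 21 in non pregnant mice, 21 in the diet average, 1 in HF pregnant minus HF non pregnant and 3 in the pregnancy average (75.0%, 75.0%, 3.57% and 10.7% of members), where they called 37.8%, 46.1%, 13.5% and 8.62% of all probe sets, and gave HF non pregnant mouse 3 a weight of 11.342. An unadjusted p with a 1.5-fold change gave 4 in non pregnant mice and 1 in the diet average (3.91% and 3.17% of all probe sets), and leaving out the 2 arrays with pancreatic genes gave 1 in the diet average (10.2% of all). Leaving out each array gave 0 to 7 in the diet average, where the share of all probe sets ran from 0.207% to 21.8% and was highest in the fit with 7, and 0 in the other comparisons. Members lower at an unadjusted p under 0.05 in non pregnant mice (8) were 21 with array weights (18.3% of all probe sets), 3 with the replicate block, 5 without the pancreatic arrays and 0 with the B and T cell covariate (1.63% of all), and 0 (without control non pregnant mouse 3 or HF non pregnant mouse 5) to 19 (without HF non pregnant mouse 4, 11.5% of all) with an array left out. In pregnant mice (1) they were 7 with array weights (12.3% of all), 2 without the pancreatic arrays and 0 (without control pregnant mouse 1 or 3 or HF pregnant mouse 4) to 4 (without control pregnant mouse 4) with an array left out. In the diet average (9) they were 23 with array weights (19.8% of all), 1 with the covariate, 7 with the replicate block and 7 to 18 (without HF pregnant mouse 5, 16% of all) with an array left out. Where no share of all probe sets stands beside a count, the count does not tell a change in the members from a change over all probe sets. With the covariate, the average of Ppara turned to 0.042 and that of Etfa to 0.12. With an array left out, the average of Etfa ranged from -0.106 to 0.016 and that of Pdk4 from -0.009 to 0.184. The same-numbered mice of different groups had deviations that correlated at a median of -0.161 over 30 pairs (from -0.749 to 0.674). Members near the filter, such as Ppara, are limited by signal over background. The cause of the other changes was not tested.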
